A study of Mus musculus with 12 samples.

Results

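The genes described here are 38 components of the machinery by which neurons store transmitter in vesicles, release it and recover the vesicle membrane. They were chosen by symbol from the rows of a gene count table, with no threshold on their values, and make up 38 of its 55450 genes. Total RNA was sequenced from brains and livers of male mice, 7 to 9 weeks old, that were either wild type (Vaultrc5+/+) or knockout (Vaultrc5-/-) for the small non-coding RNA gene Vaultrc5. The 4 groups (wild-type brain, knockout brain, wild-type liver and knockout liver) held 3 libraries each. The sample titles call the control libraries "flx", the genotype field calls them wild-type, and no strain, Cre or other allele is named in the labels.

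A synaptic vesicle is filled by transporters in its membrane, is tethered and primed at the active zone by large scaffold proteins, and fuses with the plasma membrane when SNARE proteins on both membranes zip together. Synaptotagmins are the calcium sensors that couple fusion to the action potential, and complexins hold and time the primed SNARE complex. After fusion, NSF and the SNAP adaptors pull spent SNARE complexes apart, while dynamin, amphiphysin and synaptojanin act in the retrieval of membrane by endocytosis. Several of these proteins have close relatives that serve vesicle fusion in non-neuronal cells, among them SNAP23 for SNAP25 and the pantophysin encoded by Sypl for synaptophysin.

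Many neuronal genes are held down outside neurons by the repressor REST, which binds an RE1 element made of a left part, TTCAGCACC, and a right part, GGACAGC. Since 36 of the 38 genes were higher in brain than in liver, these letters and the cyclic AMP response element TGACGTCA were searched on both strands of RefSeq promoter windows (GRCm38.p6, 250 bases before to 50 bases after each annotated start), and 31 of the 38 genes had a window. The left RE1 part was present for Syn1 and Unc13a, 6.45% of the 31 genes, against 0.433% of all 27025 genes with a window. The right part was present for 3 of the 31 (Sypl, Syt6 and Unc13a), 9.68% against 7.59%. TGACGTCA was present for Napa and Syn1, 6.45% against 2.03%, and its shorter core TGACG, which lies inside it, for 10 of the 31, 32.3% against 23.0%. The 31 genes had 43 windows, against 32851 windows for all 27025 genes, so shares per window differ. Per window the left RE1 part was at 4.65% against 0.371%, and the right part at 11.6% against 6.56%. TGACGTCA was at 4.65% against 1.79%, and TGACG at 23.3% against 20.8%. The stretches with the left RE1 part are shown because they are the only 2 found among the members. Each is 5′ to 3′ on the gene's own minus strand, with the letters of these motifs in capitals. The Syn1 stretch is chrX:20921005-20921168, before the gene start of both RefSeq and GENCODE M21. The Unc13a site is chr8:71671727-71671750, just after the annotated start, and holds both RE1 parts on the opposite strand, separated by 8 bases.
Syn1: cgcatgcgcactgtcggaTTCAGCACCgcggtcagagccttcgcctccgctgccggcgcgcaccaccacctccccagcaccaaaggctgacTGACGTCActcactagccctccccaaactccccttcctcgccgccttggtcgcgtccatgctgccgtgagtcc
Unc13a: GCTGTCCgcgcccccGGTGCTGAA
A match of letters is a description of the sequence and was not tested as a binding site. Unc13a, whose site is shown, was counted at 5 to 12 counts per liver library, and Syn1 at 6 to 26. Unc13a shares 495 exon bases with Colgalt1 on the other strand. Its counts were whole numbers, but the use of strand in the counting is not given, so they may include Colgalt1 reads.

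The libraries held between 14844937 and 18567362 counts in brain and between 23247425 and 27155478 in liver. Counts of Vaultrc5 were 4, 1 and 4 in the wild-type brains and 33, 39 and 48 in the wild-type livers, and 0 in all 6 knockout libraries. The labels do not say whether the libraries of a group came from separate animals, so p-values measure only the spread between these libraries, which may be partly technical. Marker lists for hepatocytes and neurons fitted the labelled tissues. A list of 5 hepatocyte markers summed to between 47381 and 73312 CPM (counts scaled to the library size) in liver and between 0.114 and 2.29 in brain, and 7 neuron markers summed to between 2716 and 3496 CPM in brain and between 2.38 and 3.09 in liver. Not every list separated the tissues. The astrocyte list summed to between 705 and 1092 CPM in brain and between 760 and 1152 in liver. Islet genes stood out in knockout brain 3, with Ins1 at 5.68, Ins2 at 8.52 and Gcg at 1.85 CPM. Each was at most 0.685 in the other 5 brains. Pituitary Gh was at 7.79 and 8.05 CPM in the wild-type and knockout brains numbered 1, and at most 1.83 in the other brains. The source of these transcripts was not tested. The brain libraries differed from each other in regional markers. A list of 5 cerebellar markers summed to 1543, 18.2 and 332 CPM in the wild-type brains and to 1428, 22.5 and 607 in the knockout brains. A list of 5 hindbrain and spinal cord markers summed to 217 CPM in wild-type brain 3 and to between 0.441 and 23.2 in the other 5 brains. Values of members that move with these markers are given beside them below.

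The 38 genes together took between 1.57% and 1.92% of all counts in each brain library and between 0.0226% and 0.0250% in each liver library. All 38 were detected in every brain library, and between 25 and 34 of them in each liver library. In wild-type mice 36 of the 38 had the higher level in brain and 2, Snap23 and Sypl, in liver (edgeR's quasi-likelihood test, Benjamini-Hochberg adjusted p under 0.05, a threshold kept throughout). Among all 18850 genes tested, 43.9% had more in brain and 34.7% more in liver. The knockout libraries, which share no sample with that comparison, also gave 36 and 2, where 43.5% of all 18785 genes had more in brain and 35.2% more in liver. The median log2 fold change of brain over liver was 8.32 for the 38 genes in wild type and 8.26 in knockout, against 0.21 for all genes tested in each genotype. With genes of 3 or fewer counts over the 3 livers set to their brain level over a floor of 3 counts in each liver, the medians over the 38 were 8.10 and 7.70.

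These tissue contrasts depend on how libraries of very different composition are scaled. Scaling by library totals in place of TMM (the trimmed mean of M-values) moved the median of all genes from 0.21 to 1.05 in wild type and to 1.08 in knockout. The wild-type calls over all genes then shifted from 8275 with more in brain and 6542 with more in liver to 11635 and 3997, and the knockout calls from 8178 and 6611 to 11668 and 3871. Under that scaling the 36 genes higher in brain were still called, and so was Snap23 in the liver direction. Sypl was not called, at -0.24 with an adjusted p of 0.251 in wild type and at -0.29 with an adjusted p of 0.0684 in knockout. In whole tissue, fewer cells of a type and less RNA per cell cannot be told apart.

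**Figure D1:**
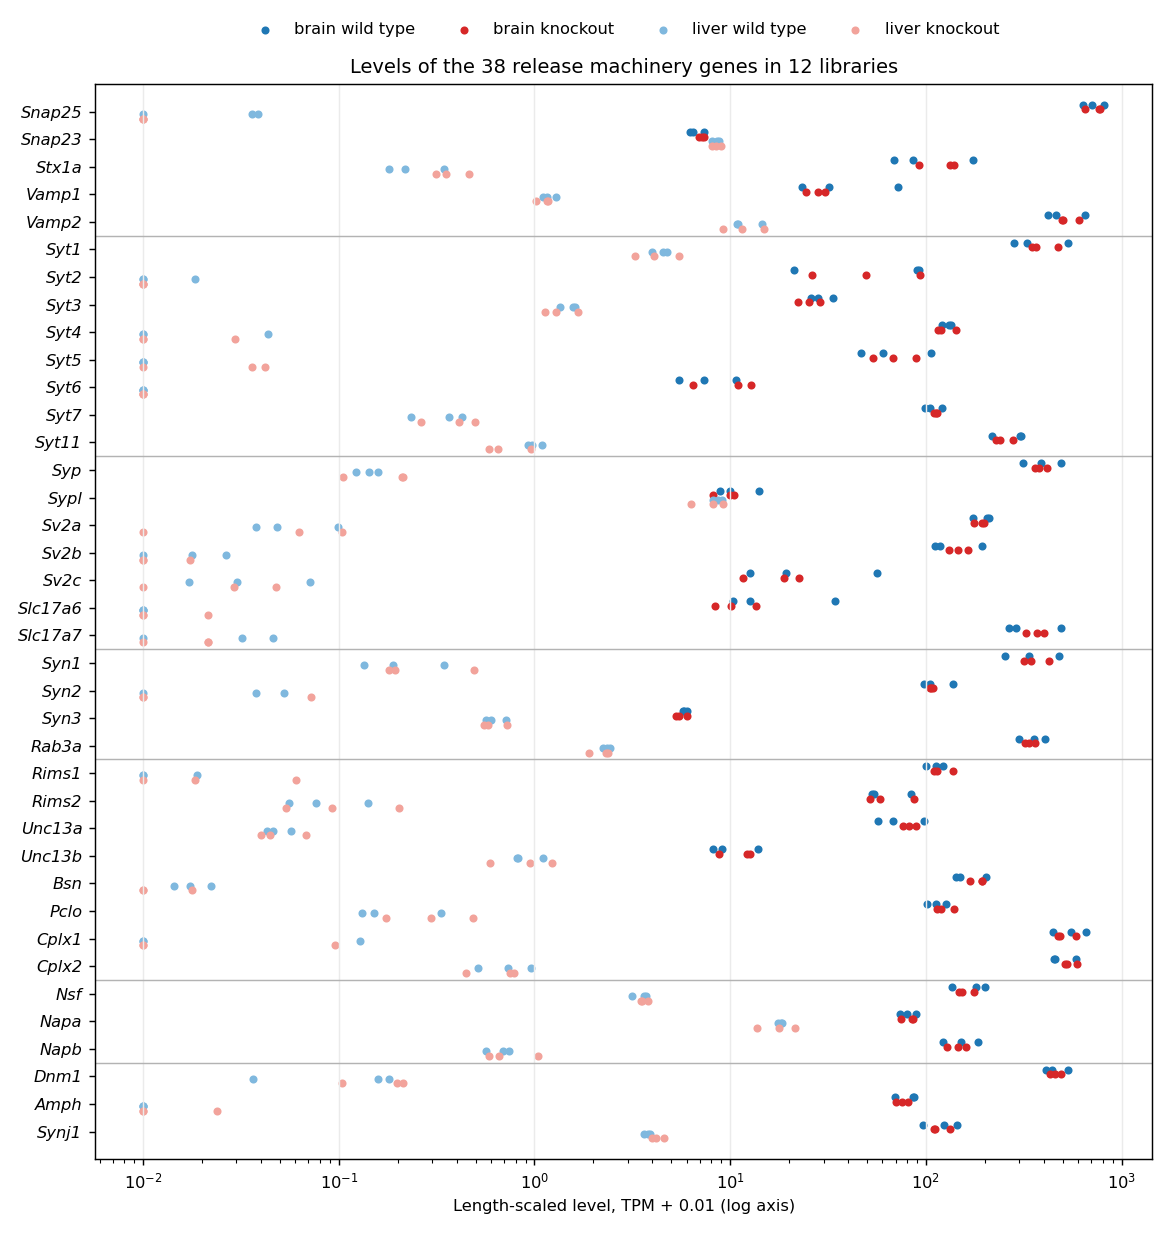
Length-scaled levels (TPM, counts per kilobase of merged exons scaled to a common library sum, plus 0.01 and on a log axis) of the 38 genes in all 12 libraries; each point is 1 library, horizontal lines separate the roles, and a point at 0.01 is a library with 0 counts. The brain points lie above the liver points for all genes except Snap23 and Sypl. For Snap23 the liver values of 8.05 to 8.98 lie above the brain values of 6.23 to 7.38. For Sypl the ranges overlap, and both ends of the brain range lie above those of liver.

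Among the SNARE proteins, the fusion catalysts themselves, Snap25 had the highest level per length of all 38 genes in brain. Snap25 (chr2:136713453-136782428), the neuronal plasma membrane SNARE, stood at 1856, 2217 and 1905 CPM in the wild-type brains and at 2047, 2157 and 1951 in the knockout brains. Its liver counts were 0, 3 and 3 in wild type and 0 in all 3 knockout livers, and the knockout brains were at least 16786-fold higher than a floor of 3 counts in each knockout liver. Snap23 (chr2:120567671-120601255), the relative that serves fusion in most other cells, was at 12.0, 10.7 and 12.6 CPM in wild-type brain and 21.2, 22.7 and 22.6 in wild-type liver. The knockout libraries gave 11.6, 12.5 and 14.0 in brain and 22.3, 24.0 and 21.6 in liver. Per length its 6 livers, at 8.05 to 8.98 TPM, lay above its 6 brains, at 6.23 to 7.38. The log2 fold change of brain over liver was -1.76 ± 0.12 (SE, n = 3 each) in wild type, adjusted p = 4.62e-06, and -1.69 ± 0.12 in knockout. Over the other scalings, filters, tests and left-out replicates it ran from -1.86 to -0.92 in wild type. In knockout that range was -1.77 to -0.81.

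The vesicle SNAREs Vamp1 and Vamp2 (synaptobrevins) were both higher in brain and both present in liver. Vamp2 was at 697, 992 and 699 CPM in wild-type brain and 749, 946 and 834 in knockout brain. In liver Vamp2 was at 25.2, 25.8 and 33.0 CPM in wild type and 26.8, 24.3 and 31.6 in knockout, which placed it second among the 38 genes in liver by level per length (9.17 to 14.8 TPM). Vamp1 was at 141, 94.6 and 290 CPM in wild-type brain and 121, 117 and 110 in knockout brain, and wild-type brain 3 was the highest of the 6. Liver Vamp1 was at 7.09, 8.02 and 6.69 CPM in wild type and 7.20, 8.16 and 5.73 in knockout. The brain excess was 3.98 ± 0.20 (log2) for Vamp2 and 3.74 ± 0.42 for Vamp1 in wild type. Stx1a, the syntaxin that pairs with SNAP25, was at 79.4, 185 and 91.1 CPM in wild-type brain and 96.0, 151 and 157 in knockout brain, and at no more than 0.679 CPM in any liver.

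The synaptotagmins split into genes with liver counts and genes almost without them. Syt1 (chr10:108497650-109010982), the fast calcium sensor of forebrain synapses, was the highest of the 8 in brain per length, at 1020, 1769 and 1092 CPM in wild type and 1134, 1616 and 1357 in knockout. It also had between 444 and 637 counts in each liver library, or 20.1, 23.4 and 23.8 CPM in wild type and 20.8, 18.9 and 25.5 in knockout. Its brain excess was 5.00 ± 0.26 (log2) in wild type, adjusted p = 1.22e-06. The 6 liver libraries lay close together for this gene, and its liver level of 3.26 to 5.48 TPM was the fifth of the 38.

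Syt3, Syt7 and Syt11 were the other synaptotagmins with at least 10 counts in every liver library. Syt3, a high-affinity calcium sensor, was at 35.0, 34.8 and 41.5 CPM in wild-type brain and 34.9, 32.4 and 30.6 in knockout brain, and at 2.98, 2.58 and 2.99 in wild-type liver and 3.18, 2.76 and 1.95 in knockout liver. Syt7, which acts in slow release and in lysosome fusion, was at 339, 363 and 292 CPM in wild-type brain and 323, 346 and 378 in knockout brain, and at 1.89, 1.66 and 1.01 in wild-type liver and 1.84, 1.32 and 2.04 in knockout liver. Syt11, a family member that does not bind calcium in the usual way, was at 491, 631 and 634 CPM in wild-type brain and 488, 595 and 527 in knockout brain, and at 3.06, 3.50 and 2.88 in wild-type liver and 1.84, 3.44 and 1.87 in knockout liver. The tissues were far apart for all 3 genes, with wild-type brain excesses of 2.85 ± 0.14, 6.92 ± 0.24 and 6.69 ± 0.18 on the log2 scale. Syt11 had fractional counts in 11 of the 12 libraries, so some of its reads were shared with other genes by the counting and its values are less certain.

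Syt2, Syt4, Syt5 and Syt6 had at most 3 counts in any liver library, and Syt6 had none. Syt6 was the lowest synaptotagmin in brain per length (5.45 to 12.8 TPM). Its wild-type brains were at least 157-fold higher than a floor of 3 counts in each wild-type liver. Syt5 was also listed at 0 in the wild-type livers, which made its wild-type brains at least 577-fold higher, but it had 2 counts over the 3 knockout livers. Syt4 ranged from 187 to 226 CPM in brain, and Syt5 from 47.9 to 101.

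Of the vesicle membrane proteins, Syp (synaptophysin) had the highest median per length in brain (384 TPM), with a range that overlapped that of Slc17a7. Syp was at 704, 1015 and 799 CPM in wild type and 733, 884 and 878 in knockout. In liver it stood at 0.420, 0.478 and 0.350 CPM in wild type and 0.306, 0.722 and 0.594 in knockout, a wild-type brain excess of 10.11 ± 0.25 (log2). Sypl (chr12:32953891-32979860), its broadly expressed relative, was at 36.0, 29.6 and 46.4 CPM in wild-type brain and 34.0, 34.0 and 30.1 in knockout brain. The livers gave 45.9, 42.1 and 43.5 in wild type and 41.8, 36.6 and 43.1 in knockout. With TMM scaling the log2 fold change of brain over liver was -1.08 ± 0.17 in wild type, adjusted p = 0.000544, and -1.17 ± 0.11 in knockout, the call that was lost with library totals. Per length the ranges overlapped, with 8.14 to 14.0 TPM in brain and 6.32 to 9.23 in liver. Both ends of the brain range lay above those of liver, opposite to the TMM fit, so the direction for Sypl depends on the scaling.

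The other vesicle membrane genes were near or at 0 in liver. The Sv2 genes encode vesicle glycoproteins that modulate release. Sv2a ranged from 350 to 389 CPM in brain and from 0 to 0.268 in liver, Sv2b from 392 to 647 in brain and from 0 to 0.0839 in liver, and Sv2c from 49.0 to 218 in brain and from 0 to 0.368 in liver. The vesicular glutamate transporters Slc17a7 (VGLUT1, typical of cortex and cerebellar granule cells) and Slc17a6 (VGLUT2, typical of thalamus and brainstem) had at most 3 counts in any liver library. Slc17a7 was at 622, 1059 and 618 CPM in wild-type brain and 685, 886 and 885 in knockout brain. Slc17a6 (chr7:51622006-51671119) was at 29.3, 22.2 and 73.7 CPM in wild-type brain and 17.6, 22.2 and 32.2 in knockout brain, with wild-type brain 3 the highest.

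Synapsins tie vesicles to the reserve pool, and Rab3a is the vesicle GTPase that recruits effectors at the active zone. Rab3a had the highest median of these 4 per length in brain (345 TPM), with Syn1 at 341 and overlapping it. Rab3a was at 287, 361 and 314 CPM in wild type and 292, 330 and 316 in knockout, and it was present in liver at 3.27, 3.24 and 2.99 CPM in wild type and 3.21, 2.93 and 2.89 in knockout. Its brain excess was 5.81 ± 0.14 (log2) in wild type. Syn3 was the lowest of all 38 genes in brain per length (5.30 to 5.99 TPM), at 30.9, 28.0 and 29.2 CPM in wild type and 26.2, 30.1 and 28.8 in knockout. Liver Syn3 was at 5.24, 4.49 and 4.08 CPM in wild type and 4.10, 6.12 and 3.90 in knockout, an excess in brain of 1.82 ± 0.14 (log2). Timp3, a protease inhibitor gene, lies on the other strand and overlaps 1733 bases of Syn3 exons, with 564 to 885 counts in the livers and 1141 to 1678 in the brains. Syn3 counts were whole numbers in every library. Since the use of strand in the counting is not given in the sources used here, it cannot be said whether they include Timp3 reads. Syn1 ranged from 361 to 631 CPM in brain and from 0.252 to 1.10 in liver, and Syn2 from 289 to 387 in brain and from 0 to 0.268 in liver.

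The active zone and priming genes were high in brain, with 3 of the 8 present in every liver library at 10 or more counts. By median level per length in brain, Cplx2 (complexin 2, 518 TPM) and Cplx1 (517 TPM) led and could not be ordered. Cplx2 was at 967, 1152 and 892 CPM in wild type and 1141, 1056 and 1118 in knockout. In liver Cplx2 was at 1.51, 2.91 and 2.14 CPM in wild type and 2.33, 1.49 and 2.04 in knockout. Cplx1 reached 414 to 574 CPM in brain and 0 to 0.156 in liver, so the liver counts of this pair were nearly all Cplx2. Pclo (piccolo), a giant scaffold, was at 1088, 1139 and 908 CPM in wild-type brain and 1219, 1098 and 1131 in knockout brain. Its liver values were 4.40, 1.69 and 1.91 CPM in wild type and 6.58, 2.55 and 3.61 in knockout. Its partner scaffold Bsn (bassoon) reached 941 to 1366 CPM in brain and at most 0.117 in liver.

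Unc13b (Munc13-2), a priming factor also used by secretory cells outside the brain, was the active zone gene with the smallest brain excess, 2.09 ± 0.23 (log2) in wild type. It was at 80.1, 126 and 81.8 CPM in wild-type brain and 78.0, 117 and 123 in knockout brain, and at 11.2, 15.4 and 11.0 in wild-type liver and 13.1, 19.3 and 7.43 in knockout liver. Unc13a (Munc13-1), the main neuronal form, was at 310, 494 and 342 CPM in wild-type brain and 378, 459 and 457 in knockout brain, and at 0.252, 0.368 and 0.272 in wild-type liver and 0.268, 0.510 and 0.212 in knockout liver. Rims1 ranged from 291 to 397 CPM in brain and from 0 to 0.230 in liver, and Rims2 from 219 to 378 in brain and from 0.255 to 1.22 in liver. Both encode scaffolds that link vesicles to calcium channels.

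All 3 SNARE disassembly genes were present in liver. Nsf, the ATPase, was at 489, 668 and 600 CPM in wild-type brain and 499, 604 and 547 in knockout brain, and at 18.8, 18.7 and 15.7 in wild-type liver and 18.0, 21.9 and 16.3 in knockout liver. Napa (chr7:16098458-16117975), the alpha-SNAP adaptor used in all cells, was at 121, 135 and 120 CPM in wild-type brain and 128, 131 and 125 in knockout brain, and at 42.2, 41.3 and 41.2 in wild-type liver and 41.1, 36.2 and 45.1 in knockout liver. Napa had the highest level per length of the 38 genes in liver (13.8 to 21.3 TPM) and the smallest brain excess of the 36, 0.75 ± 0.09 (log2), adjusted p = 0.00017. Napb, the brain-enriched beta-SNAP, was at 375, 518 and 424 CPM in wild-type brain and 401, 464 and 400 in knockout brain, and at 3.15, 2.43 and 2.88 in wild-type liver and 2.49, 3.19 and 4.07 in knockout liver. Its brain excess was 6.44 ± 0.19 (log2), against 4.20 ± 0.17 for Nsf.

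Among the endocytosis genes Dnm1, the neuronal dynamin that cuts vesicles free, was the highest per length in brain, at 931, 1111 and 916 CPM in wild type and 944, 1055 and 1007 in knockout. Its livers gave 0.0839, 0.552 and 0.467 CPM in wild type and 0.651, 0.340 and 0.552 in knockout. Synj1 (chr16:90936092-91011308), a lipid phosphatase that strips the clathrin coat, was at 336, 467 and 397 CPM in wild-type brain and 348, 442 and 399 in knockout brain, and at 18.6, 18.1 and 18.9 in wild-type liver and 19.7, 23.5 and 20.8 in knockout liver, a brain excess of 3.58 ± 0.15 (log2) in wild type. Amph (amphiphysin) ranged from 136 to 157 CPM in brain. No wild-type liver held a count of it and the knockout livers held 1 in all, so it was at least 1256-fold higher in the wild-type brains than a floor of 3 counts in each wild-type liver.

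By liver counts the 38 genes thus fell into 17 with at least 10 counts in each liver library, 10 that never exceeded 3 counts in a liver library, and 11 in between. The 17 included members of all 7 roles. Of the 7 neuron markers, Nefm and Elavl4 were at 0 in all livers, Tubb3 and Nefl were at 3 or fewer counts, Eno2 reached 8 counts and Rbfox3 18. Map2 reached 66 counts, at 1.49 to 2.43 CPM, and the sum over the list did not exceed 3.09 CPM in any liver library.

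Within pairs of related genes, the share of each member in counts per kilobase gave a ratio that does not depend on library scaling. Snap23 made up 0.757% to 1.12% of the Snap23 and Snap25 signal in brain and 99.7% to 100% in liver. Sypl made up 1.79% to 3.50% of the Sypl and Syp signal in brain and 96.9% to 98.8% in liver. For Unc13b of Unc13b and Unc13a the shares were 10.3% to 13.0% in brain and 95.1% to 96.4% in liver. The few Unc13a liver counts may include reads of Colgalt1, which overlaps it on the other strand. Napa, by contrast, was 32.7% to 37.6% of its pair in brain and 95.4% to 96.9% in liver, so it remained a sizeable part of the brain signal. A larger share in liver is not a higher level there, since Unc13b and Napa were themselves higher in brain. The shift in shares between tissues did not extend to Vamp1. It was 3.45% to 13.4% of the Vamp1 and Vamp2 signal in brain and 6.37% to 11.2% in liver, overlapping ranges. Syt2 of Syt2 and Syt1 was 24.2%, 3.82% and 21.8% in wild-type brain, 21.3%, 5.24% and 11.8% in knockout brain, and at most 0.178% in liver.

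**Figure D2:**
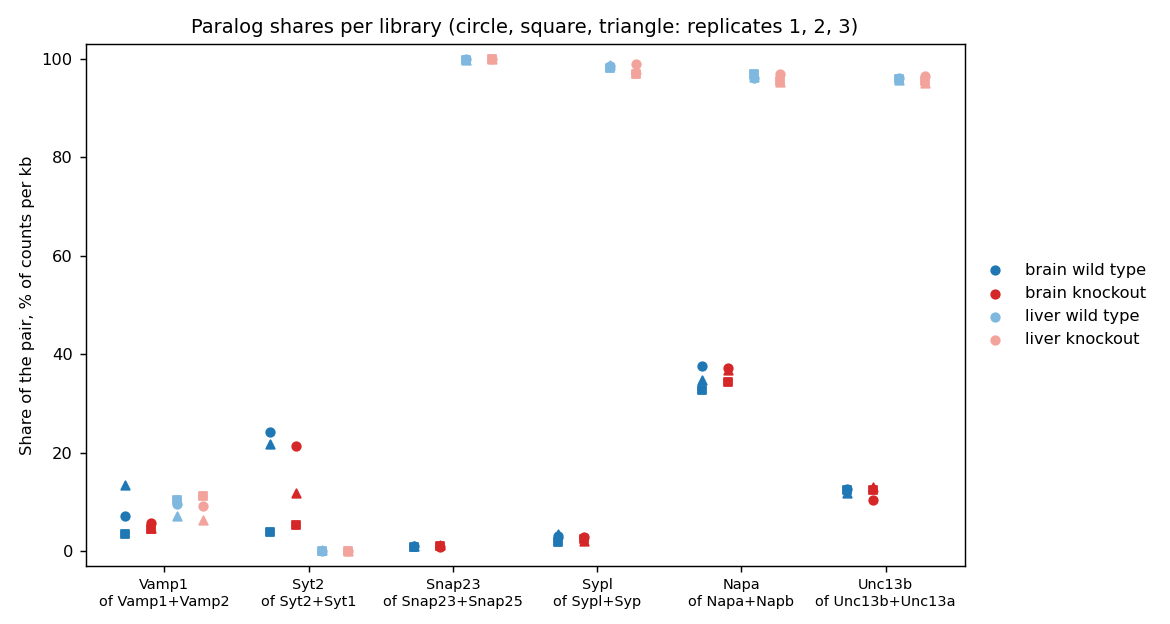
Share of the first-named gene in the counts per kilobase of a related pair, in percent, for 6 pairs; each point is 1 library, coloured by group, with circles, squares and triangles for replicates 1, 2 and 3. Snap23, Sypl, Napa and Unc13b take over 95% of their pair in every liver library, while the brain shares of Syt2 run from 3.82% to 24.2%.

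The brain libraries of a genotype differed from one another, and a few members were far more variable than the rest. The coefficient of variation over the 6 brains was 67.9% for Sv2c, 63.0% for Slc17a6, 54.0% for Syt2, 49.6% for Vamp1 and 34.2% for Stx1a, down to 4.23% for Sv2a. The median over the 38 genes was 12.9%, against 15.8% for all 18075 genes tested in brain.

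Syt2 (chr1:134646677-134762593), the fast calcium sensor of hindbrain and cerebellar synapses, was at 298, 64.4 and 278 CPM in wild-type brain and 280, 81.9 and 166 in knockout brain. Both brains numbered 2 were the lowest for this gene, and the same brains were the lowest in the cerebellar list, at 18.2 and 22.5 summed CPM against 332 to 1543 in the other 4. Rims2 (chr15:39198261-39684372) was at 378, 219 and 223 CPM in wild-type brain and 356, 220 and 267 in knockout brain, highest in the brains numbered 1, which also held the highest cerebellar sums, 1543 and 1428. Over all 6 brains Rims2 had the order of the cerebellar sums, while Syt2 did not. Wild-type brain 3 had more Syt2 than knockout brain 3 with a lower cerebellar sum (332 against 607) and a higher hindbrain and spinal cord sum (217 against 7.29). Within the cerebellar list Gabra6 ranged from 0.0588 to 215 CPM and Pcp2 from 0.0551 to 82.4. The part of tissue composition in the levels of Syt2 and Rims2 was not tested.

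Vamp1 (chr6:125215551-125245964), Sv2c (chr13:95954594-96132577) and Slc17a6 shared another pattern, with wild-type brain 3 alone at the top. Sv2c was at 80.6, 49.0 and 218 CPM in wild-type brain and 85.7, 74.5 and 49.7 in knockout brain. That library also had the highest hindbrain and spinal cord sum (217 CPM against at most 23.2), with all 5 markers of the list at their highest there and Hoxa3 at 0 in the other 5 brains, and the highest oligodendrocyte sum (6972 CPM against 2059 to 3778). The part of these cells in the 3 genes was not tested.

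The brains numbered 2 were the highest of their genotype for many other members. In 15 of the 38 genes, 39.5%, both were above the other 4 libraries, against 15.9% of all genes tested, and for 2 of the 38, Syt2 and Rims2, both were below them, 5.26% against 15.9% of all genes. The 15 were Snap25, Vamp2, Syt1, Syt5, Syp, Sv2b, Slc17a7, Syn1, Rab3a, Unc13a, Nsf, Napa, Napb, Dnm1 and Synj1. They came from all 7 roles. Syn1, for example, was at 361, 631 and 442 CPM in wild type and 411, 577 and 504 in knockout. The sum of 5 markers of cortical and hippocampal excitatory neurons was also highest in both brains numbered 2, at 303, 512 and 279 CPM in wild-type brain and 320, 506 and 410 in knockout brain. Neurod2, a marker of that list, was not, at 111, 94.4 and 72.4 CPM in wild type and 110, 86.5 and 110 in knockout. Their part in these levels was not tested.

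**Figure D3:**
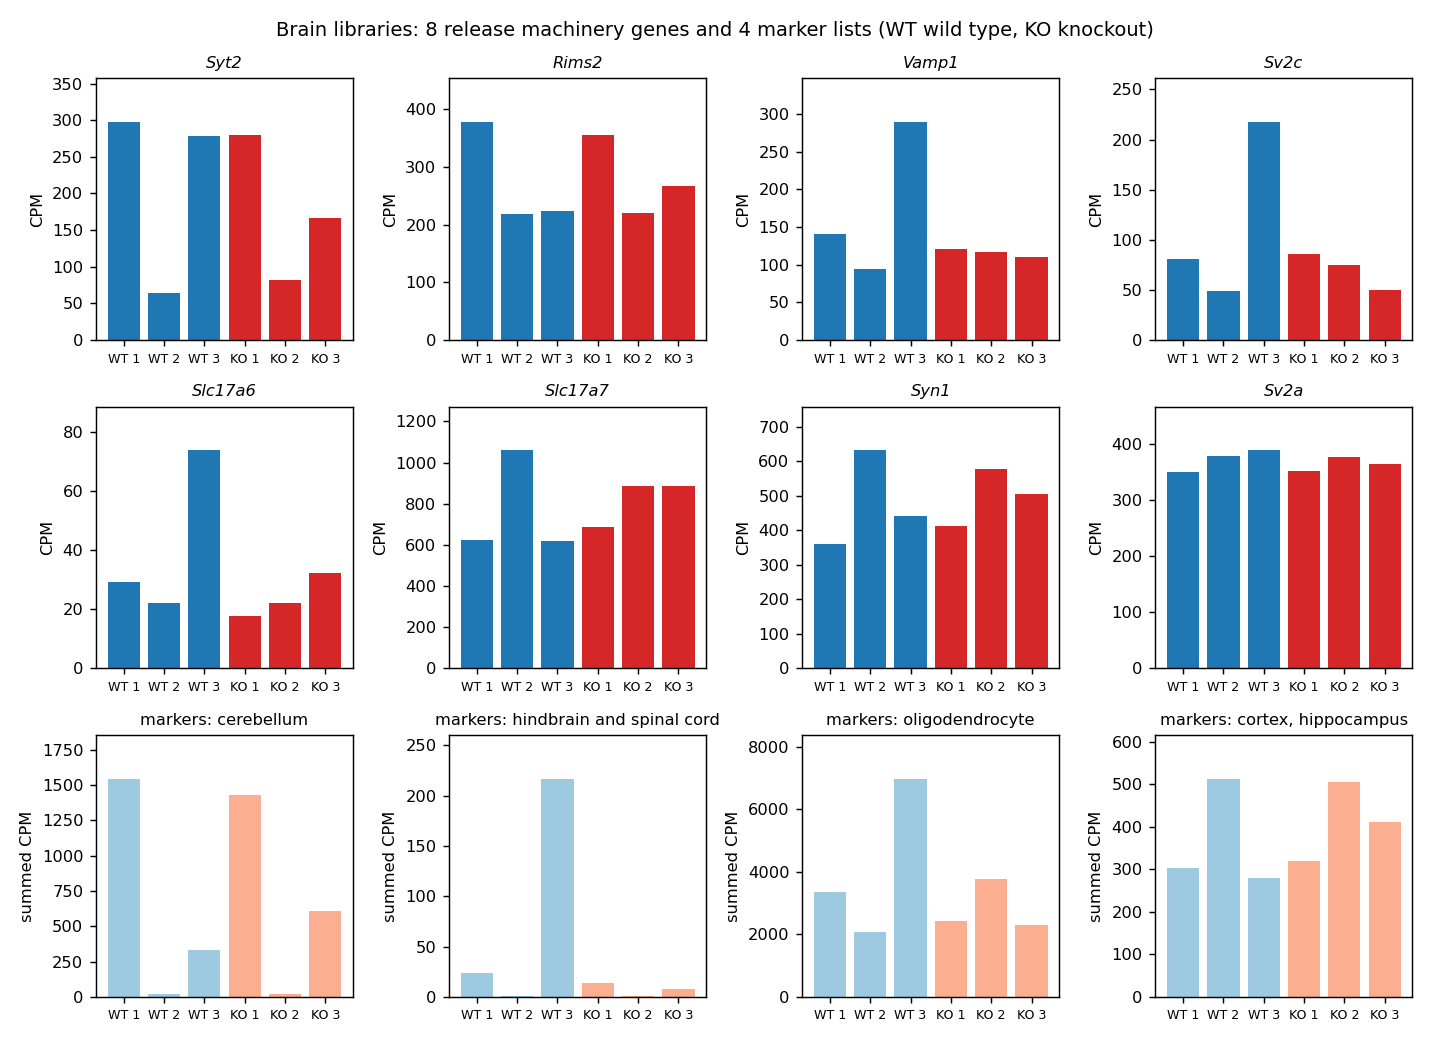
Levels in the 6 brain libraries (bars, CPM, axes from 0) of 8 members and of 4 marker lists summed over their genes; WT is wild type, KO knockout, and each bar is 1 library. Syt2 is lowest in both brains numbered 2, Vamp1, Sv2c and Slc17a6 are highest in wild-type brain 3, and Sv2a runs only from 350 to 389 CPM.

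The study's own question is what loss of Vaultrc5 does to the tissues. In brain edgeR's quasi-likelihood test called none of the 38 genes between knockout and wild type. The same was true of all genes (0 of 18075 called, 0%). With 3 libraries a group that differed in regional markers, this does not show that levels were equal. At an unadjusted p under 0.05 there was also no member, against 0.675% of all genes, and DESeq2's Wald test called no member and no gene. Without wild-type brain 2, 6 of the 38 had an unadjusted p under 0.05, against 3.32% of all genes, and none was called. The fold changes were positive for 20 members and negative for 18, and 33 lay within 0.25 of 0 on the log2 scale. Their median was 0.01, against -0.01 over all genes. The values of the genotypes overlapped for every member, where 4.27% of all genes did not overlap. Standard errors over the 38 ran from 0.09 to 0.64, with a median of 0.16 and the largest for Syt2.

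The smallest unadjusted p-values in brain belonged to Syt3, Slc17a6 and Vamp1. Syt3 differed by -0.20 ± 0.11 (log2, SE, n = 3 each), with 41.5 CPM in wild-type brain 3 and 30.6 in knockout brain 3 as its extremes. Slc17a6 differed by -0.82 ± 0.48, the lowest estimate of the 38, and Vamp1 by -0.61 ± 0.39. Adjusted p-values by edgeR were 1.00 for all 3. Without wild-type brain 3, the library with the high hindbrain markers, the estimates were -0.097 for Syt3, -0.10 for Slc17a6 and -0.02 for Vamp1, and Sv2c turned from -0.74 to 0.11. At the other end, Syt6 had the highest estimate, 0.36. It was at 13.7, 17.1 and 24.8 CPM in wild-type brain and 24.9, 30.5 and 16.7 in knockout brain. The sum of 5 markers of striatal projection neurons was at 123, 104 and 210 CPM and at 302, 260 and 82.2, highest in the same 3 libraries, and its part in the Syt6 values was not tested. Syt2 and Rims2 differed by -0.29 ± 0.64 and 0.03 ± 0.26. Leaving out both brains numbered 2, an alternative added after the data were seen, gave 0 of 38 called, 26 positive estimates and a median of 0.07.

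In liver 21 of the 38 genes had enough counts to be tested, and none was called, as was the case for all 15329 genes (0%). No member reached an unadjusted p under 0.05, against 3.5% of all genes. DESeq2 called 10 genes in liver, none of them a member, and with the replicate number as a block edgeR called 2 genes, again no member. In that blocked fit Pclo alone of the 21 had an unadjusted p under 0.05, against 6.41% of all genes, at 0.69 ± 0.18 (log2, SE) with an adjusted p of 0.712 by edgeR. Its CPM was higher in the knockout in 3 of 3 same-numbered liver pairs, and without the block it had the highest liver estimate, 0.68 ± 0.49. That estimate was 0.21 without knockout liver 1, 0.43 without wild-type liver 2 and 1.24 without wild-type liver 1. The estimates were positive for 12 and negative for 9, with a median of 0.03 against 0.01 over all genes. Synj1 was the only one of the 21 whose genotypes did not overlap, 4.76% against 9.84% of all genes, with 18.1 to 18.9 CPM in wild type and 19.7 to 23.5 in knockout. Its top value came from knockout liver 2. In that library 5 Kupffer cell markers summed to 255 CPM, against 95.7 to 131 in the other livers, and 5 cholangiocyte markers to 116, of which Spp1 alone gave 102. Their part in the Synj1 values was not tested, and without knockout liver 2 the Synj1 estimate was 0.13. With all libraries it differed by 0.20 ± 0.09 (log2, SE, n = 3 each), adjusted p = 0.992 by edgeR's test, and had the smallest p of the 21. Stx1a followed at 0.63 ± 0.40, from 0.336, 0.552 and 0.272 CPM in wild type and 0.498, 0.637 and 0.679 in knockout, and Syt11 at -0.40 ± 0.28, both with an adjusted p of 0.992. The Stx1a values rest on few counts. With each library left out in turn, Stx1a ran from 0.43 (without wild-type liver 3) to 0.98 (without wild-type liver 2). Syt11 ran from -0.76 (without knockout liver 2) to -0.25 (without knockout liver 1), with -0.26 without knockout liver 3.

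**Figure D4:**
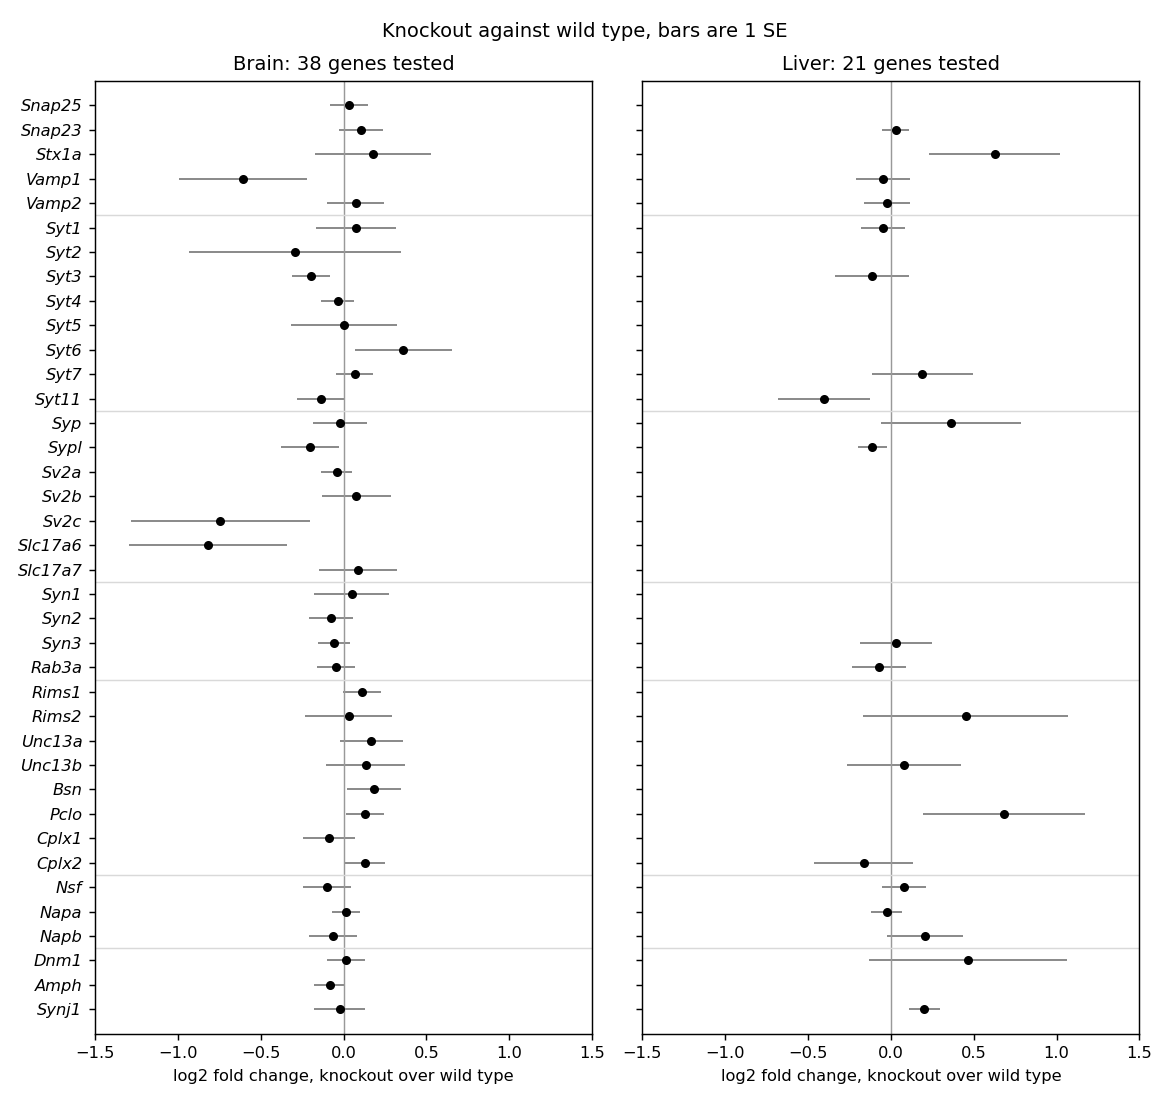
Log2 fold change of knockout over wild type for each member tested in brain (left, 38 genes) and liver (right, 21 genes), from edgeR with 3 libraries a group; points are estimates, bars 1 SE, and horizontal lines separate the roles. Most brain estimates lie within 0.25 of 0, and the 3 farthest below it, Slc17a6, Sv2c and Vamp1, have wide bars.

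A model of all 12 libraries with a genotype by tissue term asked whether the knockout effect was unequal in brain and liver, and 0 of the 38 genes were called, as were 0 of 20141 genes (0%). The 17 members that had too few liver counts to be tested in liver entered this model through their brain counts, so for them it says nothing about a liver effect. DESeq2 called no member and 1 gene. Snap25 alone had an unadjusted p under 0.05, 1 of 38 where 2.43% of all genes did, and its adjusted p was 1.00 by edgeR's test. With liver counts of 0, 3 and 3 in wild type and 0 in each knockout, no library exceeds the floor, and a fold would have no meaning.

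A further 97 genes of the same pathway, such as other syntaxins, synaptotagmins, clathrin adaptors and neurexins, were examined as a list. Of the 94 tested in wild type, 71 had more in brain, 8 had more in liver and 15 were not called, where 43.9% and 34.7% of all genes had more in brain and in liver. In knockout the numbers were 71, 8 and 14 of 93, where the shares of all genes were 43.5% and 35.2%. The 3 with the highest level per length in wild-type liver were Cltc, Atp6v0c and Ap2m1, which encode the clathrin heavy chain, a subunit of the vacuolar proton pump and a clathrin adaptor subunit used for endocytosis in all cells. Cltc was at 56.4 to 63.0 TPM in liver and 183 to 239 in brain, with a brain excess of 0.50 ± 0.12 (log2, adjusted p = 0.00447) in wild type. Atp6v0c had an excess of 1.15 ± 0.14, and Ap2m1 was not called at 0.32 ± 0.13 (adjusted p = 0.0570). These fits of the list used TMM scaling only, and TPM is on another scale. Library totals moved the median of all genes from 0.21 to 1.05 in wild type, so calls near 0 may depend on the scaling. Dnm3 and Nrxn3, a dynamin and a neurexin, had the largest brain excess among genes with at least 10 counts in each wild-type liver, 7.17 ± 0.22 and 6.98 ± 0.26. None of the list was called for the knockout in brain (92 tested), in liver (63 tested) or for the interaction (94 tested), and 0, 1 and 1 of them had an unadjusted p under 0.05, where 0.675%, 3.5% and 2.43% of all genes did.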

How the data were processed

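The authors deposited raw estimated counts, 1 column for each library, as 1 table of 55450 genes, all of whose identifiers and symbols matched GENCODE M21 (GRCm38). Per the labels, RNA was extracted with TRIzol, treated with DNase, depleted of ribosomal RNA, made into stranded libraries and sequenced single-end in 1 pool. Per the submitters' processing notes, cutadapt, STAR and mm10 were used. The counter and its use of strand are not given in the sources used here. Counts were rounded to whole numbers. Of the 38 members 36 were whole in every library (within 1e-06), Syt11 and Rims1 were not, and 12 share exon bases with a gene on the other strand.

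Fits used edgeR 4.0.16 in R 4.3.3, each on the groups compared. Settings were TMM and filterByExpr with a minimum count of 10 and a total of 15. Tests were robust quasi-likelihood F-tests with Benjamini-Hochberg adjustment over all genes tested (threshold 0.05). The knockout fits in brain and liver were also run on simulated counts. Those counts held no regional differences or pairing between libraries, so they do not cover these features of the data. SE was taken as the absolute log2 fold change over the root of the F statistic. CPM uses TMM sizes within each tissue, so tissues are compared by the fits and CPM only shows the levels behind them; TPM uses merged M21 exon lengths. Floors are 3 counts (0.162 to 0.202 CPM in brain, 0.110 to 0.129 in liver), and bounds, floors and intervals cover counting error only. Alternatives were DESeq2 1.42.0, 2 other scalings, 2 other filters, 1 joint fit, a replicate block and each replicate left out. Replicate pairs differed by more than sampling noise (chi-square over degrees of freedom 27.2 to 228). Same-numbered wild-type and knockout livers deviated together (r = 0.33, 0.36 and 0.40). This is a hint that the numbers pair the liver samples. The labels do not say so, and what these libraries share was not tested.

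Members, roles, marker lists and the pathway list (99 symbols, 97 found) were chosen with earlier results of these data known. Per-library values are given for the highest member of each role in brain (by median TPM over the 6 brains), members with 10 counts in each liver, both genes of each related pair, and the 3 smallest p-values of each knockout comparison. Others are given by range, and Sv2c, Rims2, Syn1 and Syt6 were singled out after their values were seen. Protein sequences were not used here.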

Additional observations from a re-analysis of the deposited data

How the results depend on the processing

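No member was called for the knockout in brain, in liver or for the interaction under any scaling, filter, test or left-out replicate that was run. All 36 members called higher in brain were called in each alternative in both genotypes. The number higher in liver was 1 with library totals in wild type and 1 in knockout, where Sypl lost its call, because that scaling moves all genes toward brain. The median knockout estimate of the liver members was -0.015 with library totals, -0.022 with a filter at a mean of 1 CPM (17 members tested), and -0.0045 to 0.0998 when each replicate was left out in turn. In brain that range was -0.04 to 0.09. Leaving out single brain libraries turned the sign of 23 of the 38 uncalled estimates at least once, up to 12 in 1 fit (without wild-type replicate 1 or 3), and the positive estimates numbered 12 to 25. Among the members followed singly, the ranges were -1.10 to 0.11 for Sv2c (positive at 0.11 without wild-type replicate 3), -0.79 to 0.061 for Syt2 (0.014 without wild-type replicate 1, 0.061 without knockout replicate 2), -0.17 to 0.33 for Rims2 (-0.10, -0.086 and -0.17 without wild-type replicates 2 and 3 and knockout replicate 1) and -0.042 to 0.65 for Stx1a (-0.042 without wild-type replicate 1). The cause was not tested. In brain the deviations of same-numbered samples correlated at 0.65 and 0.62 for pairs 1 and 2 and at -0.02 for pair 3, so the numbers were not taken to pair all brain samples. With the replicate block, medians were 0.017 in brain and 0.013 in liver, 36 and 2 members were called between tissues, and it changed no member's call. Shares without length correction moved for most pairs, Vamp1 to 18.3% in wild-type brain and 20.8% in wild-type liver, and Napa to 22.4% and 93.7%. In liver 10 members had at most 3 counts in any liver library. At such counts no fold change can be measured, only a bound or a wide ratio.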

Other observations

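Some genes of the wider pathway list, named here after their values were seen, varied across the brain libraries like the members described above. Unc13c, a Munc13 form known from cerebellar granule cells, was at 67.1, 13.0 and 43.3 TPM in wild-type brain and 70.3, 15.4 and 32.3 in knockout brain, lowest in both brains numbered 2. Syt9, another fast calcium sensor, was also lowest in both, at 17.8, 5.26 and 11.2 TPM in wild type and 21.5, 3.90 and 11.0 in knockout. Wild-type brain 3 alone was high for Slc18a3, the vesicular acetylcholine transporter (6.38 TPM against 0.171 to 0.536 in the other 5 brains), for Slc18a2, the vesicular monoamine transporter (2.95 against 0.0550 to 0.289), and for Sncg, gamma-synuclein (44.4 against 1.46 to 2.78).

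The 8 pathway genes higher in liver than in wild-type brain with TMM scaling included Vamp8, a SNARE of secretory granules and lysosomes, and Syngr2, a synaptogyrin of non-neuronal cells, whose log2 fold changes of brain over liver were -4.32 and -3.80.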
